A study of Mus musculus with 8 samples.

Results

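Heat shock proteins, their DnaJ partners and the cold-inducible RNA-binding proteins Cirbp and Rbm3 were followed in mouse liver RNA. The genes were taken by name: every gene whose name in the array files began with Hspa, Hspb, Hspc, Hspd, Hspe, Hsph, Hsp90, Hsf or Dnaj, plus Cirbp and Rbm3. This gave 69 genes on 135 probes, out of 27670 genes on the array. Of these, 61 genes on 115 probes were well above background on both arrays of at least 1 group, out of 18153 such genes, and the comparisons below use these 61. The other 8 (Dnajb3, Dnajb7, Dnajc5g, Dnajc6, Hsf2bp, Hsfy2, Hspa1l and Hspb3) did not reach that level. Of the measured 61, Tmem208 came in only through its older name Hspc171 and is no heat shock gene. A further 13 heat shock and DnaJ genes, among them Hsph1, carry older names in the files and fall outside the rule; 11 of these were measured.

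The samples were livers of C57BL/6 mice labelled as female and 6 months old. In the KO mice (Albumin-Cre;Dicer1loxP/loxP), an albumin promoter-driven Cre deletes Dicer1, the ribonuclease that cuts microRNA precursors, in hepatocytes. Their Dicer1loxP/loxP littermates, which carry the floxed allele without Cre, are called WT here. The 4 groups were KO mice given N-ethyl-N-nitrosourea (ENU, an alkylating mutagen), KO mice given the vehicle dimethylsulfoxide, WT mice given ENU and WT mice given vehicle. ENU was given once into the peritoneum at 120 mg/kg in 2 ml/kg, and these livers were taken on day 15. The labels do not say on which day vehicle mice were sampled, how many mice stand behind an RNA sample or at what time of day tissue was taken.

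Heat shock proteins are molecular chaperones that bind unfolded proteins. HSP70 proteins use ATP to hold and release clients, DnaJ (HSP40) proteins deliver clients to them and trigger their ATPase, HSP90 finishes the folding of kinases and hormone receptors, and the small heat shock proteins hold unfolded proteins without ATP. The heat-inducible cytosolic members are switched on by heat shock factor 1 (Hsf1), whereas the chaperones of the endoplasmic reticulum (ER) follow the unfolded protein response. Cirbp and Rbm3 bind RNA and are induced by mild cold; in mouse liver, Cirbp and the heat-inducible chaperones are known to vary over the day with body temperature, in opposite phases.

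Short stretches of the promoters of some members that carry a motif show the kinds of letters these pathways read. The windows, from RefSeq on GRCm38.p6, ran from 250 bases before to 50 bases after each start site and were searched on both strands; 54 of the 69 genes had a window. The first set holds members with the short heat shock motif GAANNTTC, which was found in 20.4% of member genes and 9.04% of all 27025 genes with a window. The other short arrangement, TTCNNGAA, was in 9.26% of member genes and 9.6% of all genes, and the E-box CACGTG, which clock factors bind, in 13.0% and 8.09%. Capitals mark GAANNTTC in Hspa1a at chr17:34972223-34972290 on the minus strand, Hspb1 at chr5:135887772-135887859 on the plus strand and Dnaja1 at chr4:40722314-40722381 on the plus strand.
Hspa1a: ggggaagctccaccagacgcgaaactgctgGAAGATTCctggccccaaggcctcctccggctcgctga
Hspb1: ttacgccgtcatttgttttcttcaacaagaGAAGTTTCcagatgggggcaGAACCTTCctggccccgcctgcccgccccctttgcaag
Dnaja1: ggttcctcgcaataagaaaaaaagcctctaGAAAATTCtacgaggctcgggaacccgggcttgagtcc

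The longer heat shock element GAANNTTCNNGAA, which contains the short one, was present in Dnajb6, Hspe1 and Hspd1, or 5.56% of member genes against 0.662% of all genes. Capitals mark it, with its overlapping copies, in Dnajb6 at chr5:29735822-29735894 on the plus strand and Hspe1 at chr1:55088029-55088106 on the plus strand. The Hspe1 stretch is shared with the neighbouring Hspd1, which is read the other way.
Dnajb6: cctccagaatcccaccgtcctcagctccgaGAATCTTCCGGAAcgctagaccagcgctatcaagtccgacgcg
Hspe1: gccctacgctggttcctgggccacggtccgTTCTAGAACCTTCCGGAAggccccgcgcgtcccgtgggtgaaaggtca

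The ER stress element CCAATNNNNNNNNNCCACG was found in 3 members, Hspa5, Dnajc3 and Hsp90b1, which is again 5.56% of member genes, against 0.137% of all genes. Capitals mark it in Hspa5 at chr2:34771995-34772073 on the plus strand, Dnajc3 at chr14:118937797-118937875 on the plus strand and Hsp90b1 at chr10:86705513-86705676 on the minus strand, where it occurs on both strands.
Hspa5: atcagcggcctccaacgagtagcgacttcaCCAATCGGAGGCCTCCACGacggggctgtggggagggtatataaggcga
Dnajc3: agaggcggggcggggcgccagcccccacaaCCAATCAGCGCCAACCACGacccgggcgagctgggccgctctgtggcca
Hsp90b1: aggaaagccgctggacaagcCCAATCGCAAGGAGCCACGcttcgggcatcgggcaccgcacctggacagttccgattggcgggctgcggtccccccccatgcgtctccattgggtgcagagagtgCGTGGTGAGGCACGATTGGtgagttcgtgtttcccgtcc

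Only members with a motif are printed. Dnajb1 had 2 windows and none of these motifs in either, and Hspa8, Hsp90aa1 and Hsp90ab1 had no window. The motifs were chosen with results of these data known, and a match describes letters only.

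Each group was measured on 2 one-colour Agilent arrays, labelled a and b. Arrays a and b of a group differed by no more than spot noise. The median absolute standardised difference was 0.672 to 0.838, where noise alone gives 0.706, against 12.5 to 27.2 between groups. Arrays a and b were therefore counted as 1 RNA sample, and nothing shows how much separate mice vary. P-values of the limma fit below rest on how unequal a gene's ENU difference was between genotypes, with limma's pooling over all genes. The SE was 0.45 for Hspb1, whose ENU difference in KO minus that in WT was 1.61, and 0.18 for Hspb9, with 0.02. A gene can thus miss the fit because its difference was unequal, not because it was small. Levels are log2 processed signal minus the array's 75th percentile, and the arrays' 75th percentiles lay between 437 and 681 signal units, with 54.7% to 69.3% of spots well above background and 0 saturated. The 4 ENU arrays shared 1 slide and scan and the 4 vehicle arrays another, so ENU and slide cannot be told apart. On both slides KO arrays lay at positions 1 and 2 and WT arrays at 3 and 4, so genotype and position cannot be told apart either. The vehicle arrays, all 4 of them, also failed 1 quality measure of the image extraction software, on the net signal of the negative control spots. The ENU arrays did not fail it. Of 2 Dicer1 probes, one had log2 differences between KO and WT of -1.51 after ENU and -2.46 on vehicle and the other of -0.25 and -0.50; whether either lies in the deleted part is not given in the sources used here. Although the mice are labelled female, 4 of 4 Y-linked genes looked up were well above background on all arrays.

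The heat-inducible chaperones Hspa1a, Hspb1 and Dnajb1 were lower after ENU than on vehicle in both genotypes, and Cirbp was higher in both. Hspa1a, the stress-inducible HSP70, had log2 levels of -1.54 and -1.51 on the 2 KO ENU arrays, against 2.18 and 2.12 on the KO vehicle arrays. In WT it had 0.37 and 0.43 after ENU, against 2.72 and 2.70 on vehicle. Both ENU groups lay below both vehicle groups with no overlap, and Hspa1a was 12.8-fold lower after ENU in KO and 4.97-fold lower in WT. Its 4 probes, with the one used at chr17:33066911-33066970 on mm7, all pointed the same way (log2 differences of -3.69 to -2.60 in KO and -2.31 to -1.02 in WT). No probe is named for its near-identical copy Hspa1b, so the signal may come from both genes.

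Hspb1, a heat-inducible small heat shock protein, had log2 levels of 1.11 and 1.08 in KO after ENU, against 2.45 and 2.43 in KO on vehicle. The WT arrays gave 1.63 and 1.69 after ENU, against 4.61 and 4.62 on vehicle. The WT vehicle sample stood highest and the other 3 groups lay closer together, so that the ENU difference was 2.54-fold in KO and 7.78-fold in WT. The single probe kept by the filter lies at chr5:134860337-134860524 on mm7.

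Dnajb1, the main DnaJ partner of the inducible HSP70, had log2 levels of 3.43 and 3.48 in KO after ENU, against 4.68 and 4.66 in KO on vehicle. In WT the levels were 2.89 and 2.92 after ENU, against 4.93 and 4.89 on vehicle. The groups did not overlap, and the gene was 2.33-fold lower after ENU in KO and 4.01-fold lower in WT. A dimmer second probe gave log2 differences of -0.45 in KO and -1.31 in WT. Hsph1, the HSP110 exchange factor that recharges HSP70 and falls outside the naming rule, had 2.24 and 2.26 in KO after ENU, against 4.36 and 4.42 in KO on vehicle. In WT Hsph1 had 2.35 and 2.34 after ENU, against 5.14 and 5.16 on vehicle.

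**Figure D1:**
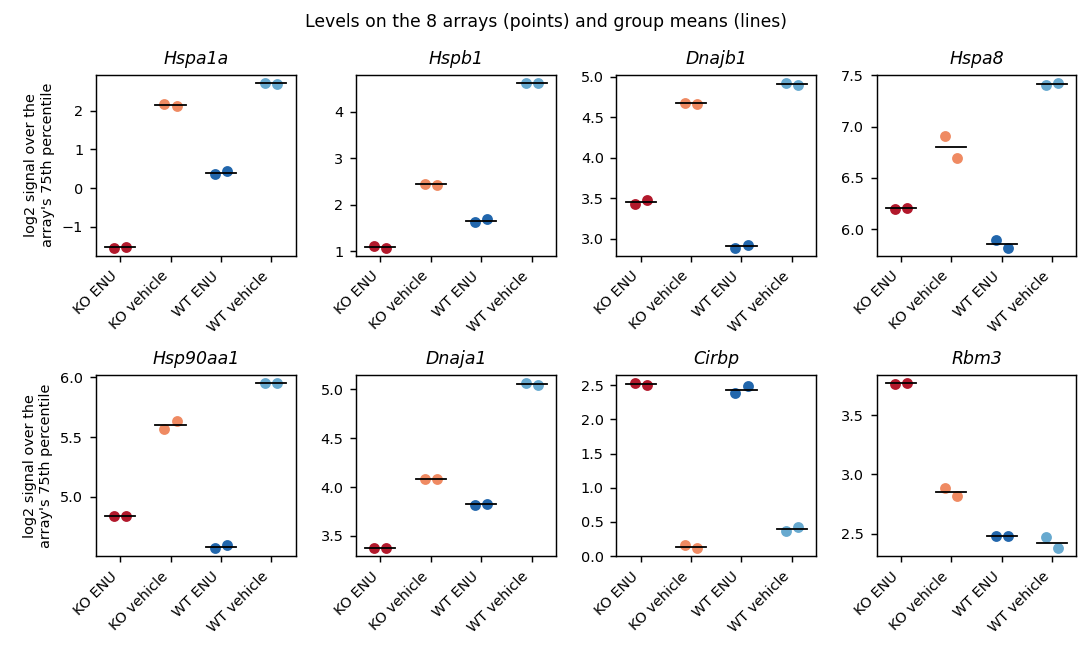
Log2 signal over the array's 75th percentile for 8 genes on each of the 8 arrays (points), with the mean of the 2 arrays of a group as a line; each panel has its own vertical axis. Hspa1a, Hspb1, Dnajb1, Hspa8, Hsp90aa1 and Dnaja1 were lower after ENU than on vehicle in each genotype, Cirbp was higher in both, and Rbm3 was highest in KO after ENU.

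Hspa8, Hsp90aa1, Hsp90ab1 and Dnaja1 were lower after ENU too on the probes used, while Hspa14 and Hspa4, other cytosolic members, were slightly higher (log2 differences of 0.47 and 0.22 in KO and 0.33 and 0.07 in WT). The other kept Hspa4 probes were all lower after ENU (-0.34 to -0.13 in KO and -0.53 to -0.25 in WT), so the probes give no single direction for Hspa4. Hspa8, the constitutive HSP70, had log2 levels of 6.20 and 6.20 in KO after ENU, against 6.91 and 6.69 in KO on vehicle. In WT Hspa8 had 5.89 and 5.82 after ENU, against 7.40 and 7.43 on vehicle. The difference was 1.51-fold in KO and 2.95-fold in WT; the second probe gave a log2 difference of 0.01 in KO and -1.41 in WT, and the files place both Hspa8 probes on another chromosome than RefSeq places the gene. Hsp90aa1, the inducible HSP90, was 1.69-fold lower after ENU in KO and 2.58-fold lower in WT, and its constitutive partner Hsp90ab1 had log2 differences of -0.53 and -0.97. Dnaja1, another DnaJ partner of Hspa8, was 1.63-fold lower in KO and 2.35-fold lower in WT, with its 3 probes spread from -0.71 to -0.03 in KO and from -1.23 to -0.96 in WT. Hsf1 itself, the activator of the heat-inducible members, had log2 differences of 0.23 in KO and 0.09 in WT on the probe used, but its other 2 probes gave -0.46 and -0.49 in KO and -0.51 and -0.47 in WT, so the probes give no single direction for Hsf1.

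Cirbp had log2 levels of 2.53 and 2.51 in KO after ENU, against 0.16 and 0.12 in KO on vehicle. In WT it had 2.39 and 2.49 after ENU, against 0.37 and 0.42 on vehicle. The ENU arrays of both genotypes lay together, well above all 4 vehicle arrays, and the difference was 5.21-fold in KO and 4.12-fold in WT. The probe lies at chr10:79953824-79953883 on mm7. Rbm3 had 3.76 and 3.77 in KO after ENU, against 2.89 and 2.82 in KO on vehicle, and 2.48 and 2.48 in WT after ENU, against 2.47 and 2.38 in WT on vehicle. The WT groups were close, and a much dimmer second Rbm3 probe gave log2 differences of -0.27 in KO and -0.52 in WT, so the 2 probes do not give 1 direction for Rbm3.

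Across the 61 genes, 1 was at least 2-fold higher after ENU in KO (Cirbp), where 3.81% of all genes were, and 6 were at least 2-fold lower (Hspa1a, Dnajb8, Hspb1, Dnajb2, Dnajb1 and Hsf4), where 4.85% of all genes were. In WT 2 were at least 2-fold higher after ENU (Cirbp and Dnajc12, against 5.24% of all genes) and 9 at least 2-fold lower (Hspb1, Hspa1a, Dnajb1, Hspa2, Hspa8, Hsp90aa1, Dnaja1, Dnajb9 and Hspb8, against 4.8% of all genes). Of the 9, 8 were cytosolic, out of 34 cytosolic or nuclear members measured, and 1 of the 9 ER members and 0 of the 7 mitochondrial members passed 2-fold. The median log2 difference of the 61 was -0.28 in KO and -0.34 in WT, beside -0.06 and -0.04 over all genes. Each of these comparisons sets 1 RNA sample against 1, with no test.

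Over the 4 RNA samples together, limma's additive fit of genotype and treatment, with 1 residual degree of freedom, called 0 of 61 genes higher and 0 lower after ENU, as it called 0.0% of all genes in each direction. The smallest Benjamini-Hochberg adjusted p was 0.159, shared by Hspa1a (log2 difference -3.00, SE 0.39), Dnajb1 (-1.61, SE 0.27), Cirbp (2.21, SE 0.20) and Dnajb13 (1.65, SE 0.29), which was above background in KO after ENU only. At an unadjusted p under 0.05 the limma fit had 18 of 61 genes lower after ENU and 3 higher, against 11.4% and 10.6% of all genes. The share of members on the lower side is therefore above that of all genes, and the share on the higher side below it.

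**Figure D2:**
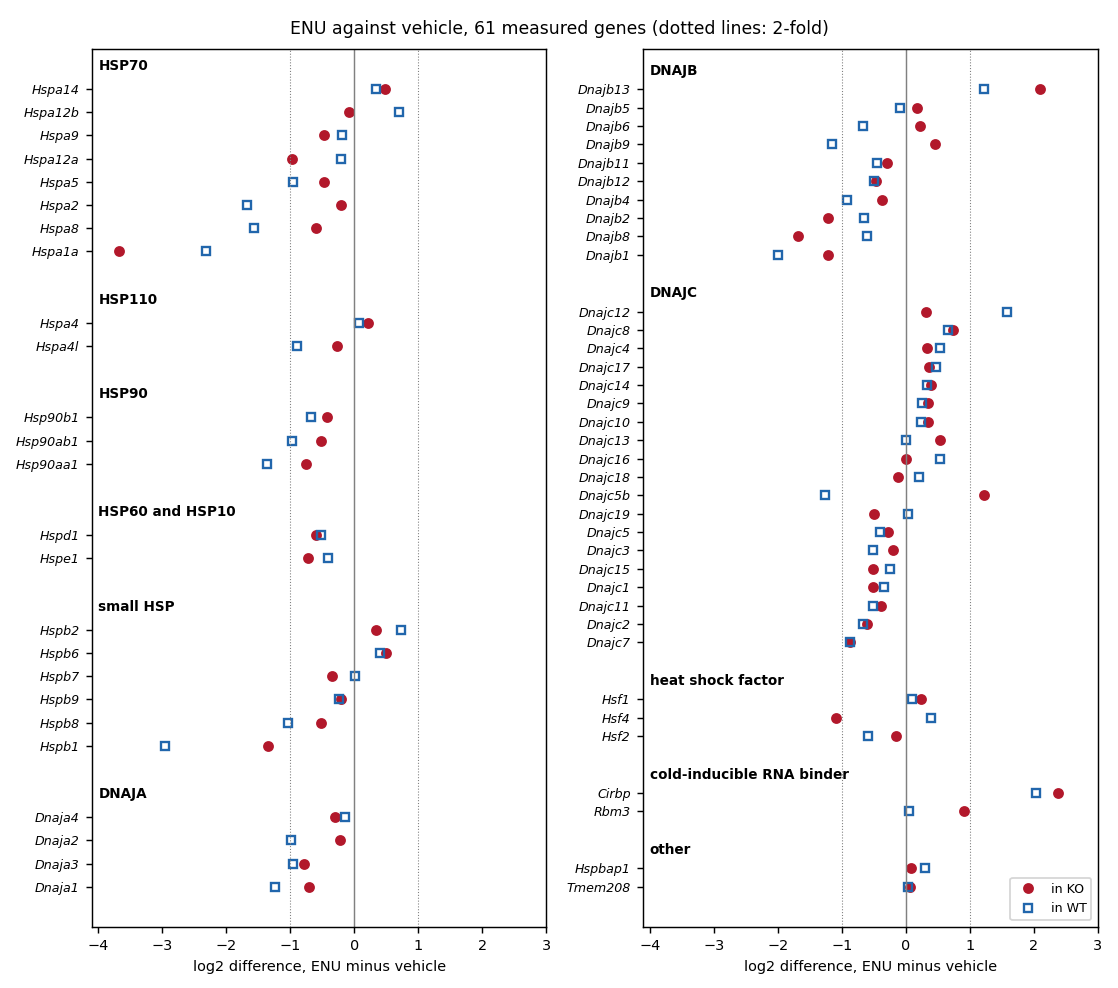
Log2 difference between ENU and vehicle for the 61 measured genes, by family, in KO (filled circles) and WT (open squares); dotted lines mark 2-fold. Hspa1a, Hspb1 and Dnajb1 lie past 2-fold on the lower side in both genotypes and Cirbp past 2-fold on the higher side in both, while most DNAJC genes lie near 0. Dnajb13 and Dnajc5b were above background in KO after ENU only, so their positions are no folds. Hspb6 was below background in KO on vehicle, so its position for KO is no fold either.

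Among partner genes of the heat shock response from outside the set, those past 2-fold after ENU were all lower. Of 22 measured cytosolic co-chaperones, 1 was at least 2-fold lower after ENU in KO and 4 in WT, and 0 were higher. Bag3, which releases clients from HSP70, was among them, with log2 differences of -1.28 in KO and -1.91 in WT. Of 15 other genes known as Hsf1 targets, 2 were at least 2-fold lower in KO and 3 in WT, and 0 were higher; the lists share 5 genes, and Bag3 and Chordc1 are counted past 2-fold in both. Hmox1, the heme-degrading enzyme induced by oxidative stress, differed by -3.65 in KO and -1.58 in WT. The 14 chaperonin (TRiC) and prefoldin genes, which fold actin and tubulin, had 0 past 2-fold in either direction in either genotype.

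Clock genes differed between the same samples as the chaperones. Of 14 measured genes of the core clock and its outputs, 3 were at least 2-fold lower and 1 at least 2-fold higher after ENU in KO, and 9 lower and 2 higher in WT. Per1 and Per2, clock repressors, differed by -0.61 and -1.997 in KO and by -3.68 and -3.50 in WT, and the clock output gene Dbp by 0.18 in KO and -3.65 in WT. Nr1d1, another clock repressor, was higher after ENU, by 3.33 in KO and 1.78 in WT. Cell type markers also differed. Of 5 proliferation markers, 3 were at least 2-fold higher after ENU in each genotype, with summed levels of 10.1 after ENU and 6.56 on vehicle in KO, and 1.40 and 0.475 in WT. Of 5 T and NK cell markers, 2 in KO and 3 in WT were at least 2-fold higher, with summed levels of 4.08 after ENU and 2.28 on vehicle in KO, and 2.02 and 1.096 in WT. Of 6 stellate and fibroblast markers, 3 in KO and 1 in WT were at least 2-fold higher, and of 6 macrophage markers 1 and 2, with macrophage summed levels of 239 after ENU and 135 on vehicle in KO, and 70.5 and 47.3 in WT. Other marker sets moved less. Of 8 neutrophil and myeloid, 4 endothelial and 4 smooth muscle markers, 0 passed 2-fold after ENU in either genotype. In each genotype 1 of 7 cholangiocyte and 2 of 4 B and plasma cell markers were higher. Of 7 hepatocyte markers 1 was lower, in KO, and of 3 erythroid markers 1 was lower, in WT. The part of the clock genes, of the cell type markers and of the time of sampling in the chaperone differences was not tested.

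Of the 9 ER members, 8 had the same sign in both genotypes after ENU, and Dnajb9 did not. The median log2 difference of the 9 was -0.30 in KO and -0.49 in WT, beside -0.25 and -0.60 for the 34 cytosolic and nuclear members. Dnajb9, a DnaJ protein that opposes the stress sensor Ire1, had log2 levels of 2.27 and 2.29 in KO after ENU, against 1.81 and 1.83 in KO on vehicle. In WT Dnajb9 had 1.72 and 1.76 after ENU, against 2.91 and 2.87 on vehicle. The KO ENU arrays thus lay above the KO vehicle arrays and the WT ENU arrays below the WT vehicle arrays, by 0.46 and -1.15, and all 3 probes gave these signs. Hspa5 (BiP), the ER's HSP70, had log2 differences of -0.47 in KO and -0.96 in WT, and Hsp90b1 (Grp94), its HSP90, -0.43 and -0.67. Of 31 further genes of ER folding and the unfolded protein response, 3 were at least 2-fold lower after ENU in KO and 6 in WT, and 0 were higher. Herpud1, an ER degradation factor induced by that response, differed by -1.05 in KO and -2.74 in WT.

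On the probes used, mitochondrial members were a little lower after ENU in KO, with 7 of 7 below 0 and a median of -0.51. In WT 6 of 7 were below 0, with a median of -0.41. Over all 18153 genes, 8175 were above 0 in KO and 8537 in WT. Second probes in KO gave -0.04 for Dnaja3, -0.11 for Hspa9, -0.29 for Dnajc11 and -0.62 for Hspd1. The other Dnajc19 probes gave -0.33 and 0.10 in KO, so these members do not all have 1 direction. Hspd1 (HSP60) and Hspe1 (HSP10), which form the mitochondrial folding chamber, differed by -0.60 and -0.72 in KO and by -0.53 and -0.41 in WT. The 19 measured DNAJC genes, a mixed class of specialised DnaJ proteins, had medians near 0 (-0.0039 in KO and 0.03 in WT). Of these 19, 1 passed 2-fold, in WT: Dnajc12, a cytosolic partner of the amino acid hydroxylases, with log2 differences of 0.32 in KO and 1.57 in WT.

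Between KO and WT, 14 of the 61 genes fell and 1 rose by the limma fit over the 4 RNA samples (adjusted p under 0.05), which called 15.3% of all genes lower and 16.9% higher in KO. The genes that fell were Dnaja3, Dnaja4, Dnajb2, Dnajb11, Dnajc3, Dnajc4, Dnajc15, Dnajc19, Hspd1, Hsf4, Hspb6, Hspb7, Hspb8 and Hspb9, and the gene that rose was Hspb2. The count that fell was 5 under quantile normalization, 7 with no filter on dim probes and 9 without WT ENU array b, so the 14 are not read as setting these genes apart from the rest. Fewer cells of a type and less RNA per cell cannot be told apart in whole liver.

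Of the 6 calls that held under quantile normalization, which gives all arrays the same distribution of signal, 4 were small heat shock proteins. All 6 were of dim genes, with mean log2 levels from -4.50 (Hspb6) to -0.58 (Dnaja4). The calls that were lost were all of brighter genes, from 2.00 (Dnajc4) to 6.71 (Hspd1). The share of calls over all genes that held is not given here. Hspb2, a small heat shock protein known from heart and skeletal muscle, had log2 levels of -0.10 and -0.16 in KO after ENU, against -1.92 and -2.03 in WT after ENU. On vehicle it had -0.49 and -0.46 in KO, against -2.82 and -2.60 in WT. All KO arrays lay above all WT arrays, and Hspb2 rose by 2.04 on the log2 scale (SE 0.21, limma adjusted p 0.0125). Its kept probe lies at chr9:50729688-50729747 on mm7. A second Hspb2 probe, dropped as too dim, gave log2 differences of -0.06 after ENU and 0.81 on vehicle.

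Hspb6 (Hsp20), which is known from muscle, had -4.93 and -5.35 in KO after ENU, against -3.44 and -3.37 in WT after ENU. The KO vehicle arrays gave -6.00 and -5.27, against -3.66 and -3.97 in WT on vehicle. Hspb6 fell by 1.78 on the log2 scale (SE 0.18, limma adjusted p 0.0127); it was well above background on 1 of the 2 KO ENU arrays and on 0 of the 2 KO vehicle arrays, so on vehicle only a bound can be given, at least 2.20-fold lower. Hspb8 (Hsp22), the partner of Bag3, fell by 0.93 (SE 0.22), the heart-expressed Hspb7 by 0.85 (SE 0.20) and the testis-expressed Hspb9 by 0.79 (SE 0.18), with limma adjusted p-values of 0.0472, 0.0476 and 0.0431. Under quantile normalization Hspb8 lost its call (-0.53, limma adjusted p 0.131), and of the 8 fits that left out 1 array Hspb7 lost its call in 6, Hspb8 in 4 and Hspb9 in 1. A second Hspb7 probe, dropped as too dim, pointed the other way, with 0.58 after ENU and 0.75 on vehicle. Hspb1 did not pass the fit (log2 difference -1.37, SE 0.45, limma adjusted p 0.0868): it was 4.52-fold lower in KO than in WT on vehicle, and its log2 difference after ENU was -0.56. Of 4 smooth muscle markers 2 rose in KO, and their summed level was 15.1 in KO and 6.79 in WT after ENU, and 9.42 in KO and 4.02 in WT on vehicle (as multiples of the 75th percentile); of 6 skeletal muscle markers, 2 were measured and 0 passed. Their part in the small heat shock protein differences was not tested.

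**Figure D3:**
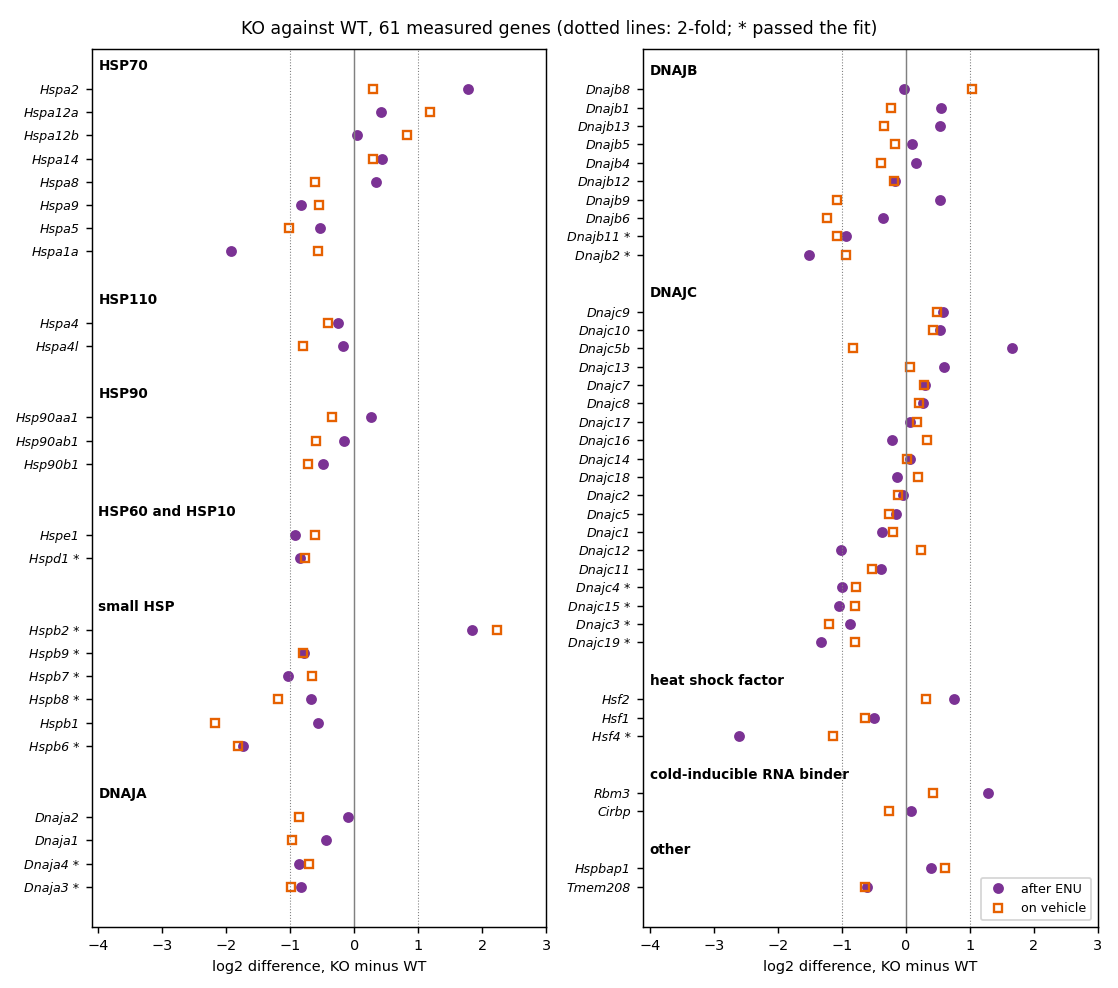
Log2 difference between KO and WT for the 61 measured genes, by family, after ENU (filled circles) and on vehicle (open squares); dotted lines mark 2-fold and an asterisk marks the 15 genes that passed the limma fit over the 4 RNA samples. Hspb2 lies past 2-fold on the higher side under both treatments, Hspb6 on the lower side under both, and Hspb1 lies past 2-fold on vehicle only. Hspb6, Dnajb13 and Dnajc5b were below background in at least 1 group, so their positions there are no folds.

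In the mitochondrion 4 of 7 members fell: Dnaja3 (Tid1), the DnaJ partner of mitochondrial HSP70, by 0.91 (SE 0.18), Dnajc19, a part of the inner membrane import motor, by 1.06 (SE 0.22), its relative Dnajc15 by 0.92 (SE 0.19), and Hspd1 by 0.81 (SE 0.18), with limma adjusted p-values of 0.0346, 0.0374, 0.0368 and 0.0421. Hspd1 had log2 levels of 6.00 and 6.02 in KO after ENU, against 6.82 and 6.88 in WT after ENU, and 6.61 and 6.62 in KO on vehicle, against 7.38 and 7.39 in WT on vehicle. Each KO sample lay below the WT sample given the same treatment. All 4 calls were lost under quantile normalization, where Dnaja3 had -0.64, Dnajc15 -0.45, Dnajc19 -0.42 and Hspd1 -0.09 (limma adjusted p-values of 0.071, 0.152, 0.240 and 0.729). Hspe1 (-0.77, limma adjusted p 0.0541) and Hspa9, the mitochondrial HSP70 (-0.69, limma adjusted p 0.0656), did not pass. Calls under quantile normalization are not given here for the 16 other mitochondrial chaperone and protease genes. Of these 16, 8 fell and 0 rose by the fit, beside 15.3% and 16.9% of all genes. The largest of these differences were Clpx, the unfoldase of the ClpXP protease (fell by 1.34), Trap1, the mitochondrial HSP90 (fell by 1.08), and Grpel1, the exchange factor of mitochondrial HSP70 (fell by 1.07).

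In the ER 2 of 9 members fell, Dnajb11, a BiP cofactor, by 1.01 (SE 0.18, limma adjusted p 0.0282) and Dnajc3 (p58IPK), which restrains the stress kinase Perk, by 1.04 (SE 0.20, limma adjusted p 0.0309). Dnajc3 had log2 levels of 3.66 and 3.66 in KO after ENU, against 4.54 and 4.54 in WT after ENU, and 3.83 and 3.90 in KO on vehicle, against 5.02 and 5.09 in WT on vehicle. Both calls were lost under quantile normalization, with -0.61 for Dnajb11 and -0.49 for Dnajc3 (limma adjusted p-values of 0.078 and 0.132). Hspa5 (-0.78, limma adjusted p 0.0653) and Hsp90b1 (-0.61, limma adjusted p 0.0801) did not pass the fit, and Dnajb9 had a log2 difference of 0.53 after ENU and -1.07 on vehicle. For the 31 other ER genes, calls under quantile normalization are not given here either. Of these 31, 10 fell and 1 rose by the fit, beside 15.3% and 16.9% of all genes. Ero1b, an oxidase that feeds disulfide formation, fell by 1.92, Derl3, a degradation channel protein, by 1.78, and Sdf2l1, a BiP cofactor, by 1.55; the gene that rose was Eif2ak3, which encodes Perk.

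Among the cytosolic and nuclear members 7 of 34 fell and 1 rose. Dnajb2, a DnaJ protein that passes clients to the proteasome, fell by 1.23 (SE 0.23, limma adjusted p 0.0301), and Dnaja4 by 0.79 (SE 0.18, limma adjusted p 0.0451). Hsf4, a heat shock factor known from the lens, fell by 1.87 (SE 0.41, limma adjusted p 0.041): it had -5.28 and -4.91 in KO after ENU, against -2.47 and -2.51 in WT after ENU, and -3.83 and -4.19 in KO on vehicle, against -2.80 and -2.96 in WT on vehicle. The groups did not overlap, and 1 of the 2 KO ENU arrays was not well above background. Dnajc4, a DnaJ protein with no compartment assigned here, fell by 0.89 (SE 0.19, limma adjusted p 0.0377). Hsf1 (-0.56, limma adjusted p 0.0875) and Hsf2 (0.53, limma adjusted p 0.129) did not pass. Hspa1a had log2 differences of -1.93 after ENU and -0.56 on vehicle (limma adjusted p 0.0805), and Rbm3 1.28 and 0.43 (limma adjusted p 0.0885), with the second Rbm3 probe at 0.21 and -0.03. Hspa2, a testis-enriched HSP70, had 1.77 after ENU on the probe used and -0.07 on the other.

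By size alone, 3 genes were at least 2-fold higher in KO after ENU (Hspb2, Hspa2 and Rbm3, against 14.0% of all genes) and 8 at least 2-fold lower (against 13.9%). On vehicle 3 were higher (Hspb2, Hspa12a and Dnajb8, against 13.3%) and 9 lower (against 10.8%). By the limma fit, 3 of 22 co-chaperones fell and 0 rose, and 1 of 14 TRiC and prefoldin genes fell. That fit called 15.3% of all genes lower and 16.9% higher in KO. Of the 15 other Hsf1 targets 4 rose and 2 fell: the collagen chaperone Serpinh1 rose by 1.97, the immediate early gene Ier5 by 1.80 and the small heat shock protein Cryab by 1.31. The clock list had 2 of 14 genes that fell, Cry1 and Nfil3.

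Over all genes, the KO difference went down as the signal got stronger. Among genes whose mean log2 level was 4 or more, the median KO difference was -0.53 for the 13 members after ENU and -0.66 for all 1401 genes, and on vehicle -0.64 for the members and -0.64 for all genes. With quantile normalization the same medians were 0.0044 and -0.07 after ENU and -0.01 and -0.05 on vehicle. Of the 15 calls, 6 held under that normalization (Dnaja4, Hsf4, Hspb2, Hspb6, Hspb7 and Hspb9). Hspa8, Hsp90aa1 and Dnajb1, which were lower in KO than in WT on vehicle by the main scaling (-0.62, -0.35 and -0.24), were higher under quantile normalization (0.18, 0.33 and 0.32).

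**Figure D4:**
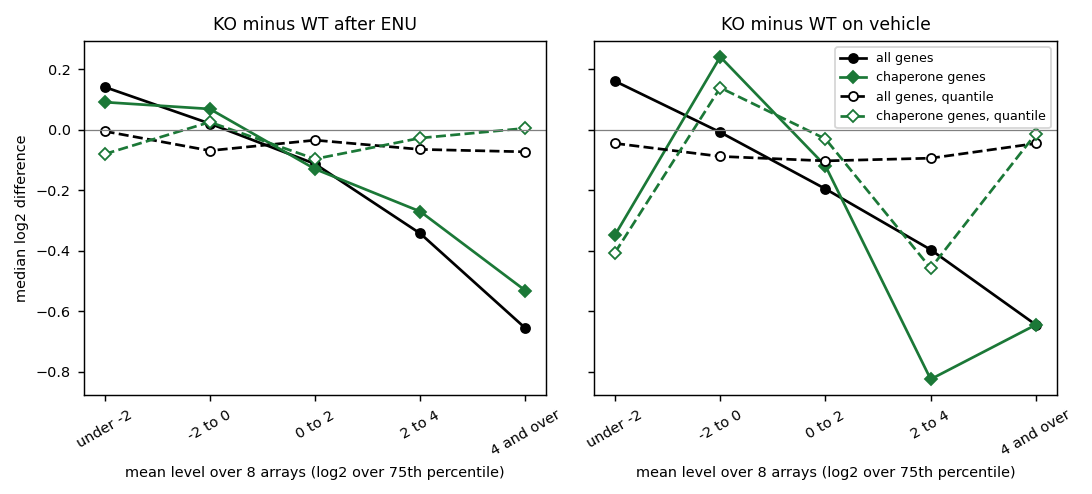
Median log2 difference between KO and WT after ENU (left) and on vehicle (right) for genes grouped by mean log2 level over the 8 arrays, for all genes (circles) and the chaperone genes (diamonds), with the main scaling (solid) and quantile normalization (dashed). The bins hold 8 to 17 chaperone genes each; with the main scaling the medians of all genes go down as the signal gets stronger, and with quantile normalization they stay near 0.

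Markers of cell types moved with genotype beside these results. Of 7 measured hepatocyte markers 4 fell in KO, and their summed level was 1444 in KO and 2181 in WT after ENU, and 1357 in KO and 2063 in WT on vehicle; 0 of them were below background. All 7 cholangiocyte and progenitor markers rose (summed level 62.8 in KO and 7.92 in WT after ENU, and 64.3 in KO and 5.83 in WT on vehicle), 7 of 8 neutrophil and myeloid markers rose, 5 of 6 macrophage markers rose and 5 of 5 proliferation markers rose. Of 5 T and NK cell markers 3 rose and 1 fell, and of 3 erythroid markers 2 fell. Of 6 stellate and fibroblast markers 2 rose, of 4 B and plasma cell markers 2 rose, and of 4 endothelial markers 0 passed. The fit called 16.9% of all genes higher and 15.3% lower in KO. The part of these marker changes in the chaperone differences was not tested.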

How the data were processed

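Per the labels, liver total RNA was labelled with Cy3 and hybridised to one-colour Agilent arrays, 8 arrays for 4 groups. Per the file headers, Agilent Feature Extraction 10.7.1.1 produced the deposited intensity columns, though 10.5.1 is the version in the submitters' processing notes. That program had already subtracted background from the processed signal used; its raw mean and background columns served 1 alternative. After controls and flagged outliers were dropped, copies of a probe were averaged and log2 signal minus each array's 75th percentile computed. The names of 41174 probes were updated through RefSeq (GRCm38.p6), with 22951 found through their accession, 6659 through a symbol and 3109 through an older symbol; 8455 stayed as in the files. Probe coordinates are the files' own, on mm7 (NCBI35).

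A probe had to be well above background on both arrays of at least 1 group, and the brightest kept probe stood for its gene; of the 61 genes 33 had several. A group not above background gave a bound for 2-fold counts, with its level raised to that of the dimmest detected probe of each array. Arrays a and b were averaged, and limma 3.58.1 (R 4.3.3) fitted genotype and treatment over 4 RNA samples, with Benjamini-Hochberg adjustment over 18153 genes at 0.05; the fit was tested on simulated data. Across all probes 81 missing array values were filled in, 0 of them in members. The letters a and b do not pair samples across groups (correlations of deviations -0.020 to 0.108).

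Named genes were those past the fit, the 8 largest past 2-fold in each pairwise comparison, a fixed set of well-known members whatever their values, and from other lists up to 3 genes past the fit. Of these, Hspa1b has no probe by that name. Bag3, Hmox1, Per1, Per2, Dbp, Nr1d1 and Herpud1, as well as the members Dnajb6 in the promoter stretches and Hspa4, Hspa14, Dnajb13 and Dnajc5b, and the list gene Chordc1, were named after their values were seen. Members, lists, compartments (assigned by hand from common knowledge) and tests were chosen with earlier results of these data known. Alternatives were background correction (normexp), quantile normalization, median centring, other probe filters, the mean of all probes, each array left out, and arrays as replicates. The 4 RNA samples, with 1 residual degree of freedom, limit the precision, and the number of mice behind each is not known.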

Additional observations from a re-analysis of the deposited data

Results flagged for a closer look

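Some members lay on opposite sides of their comparison in the other genotype or treatment on all arrays. With 1 RNA sample a group the difference was not tested in any of these. For Dnajb9, the ENU difference in KO minus that in WT was 1.604, since KO arrays were higher and WT arrays lower after ENU; the same value, 1.604, is the KO difference after ENU minus that on vehicle. The ENU difference in KO minus that in WT was 0.8821 for Dnajb6, -0.52 for Dnajc19 and -1.471 for Hsf4. For Dnajc19 the ENU difference in WT was only 0.03. The median absolute difference between arrays a and b was 0.044 to 0.058 over all genes, so Dnajc19 has no clear direction in WT. Another Dnajb6 probe was lower after ENU in both genotypes (-0.51 in KO and -0.92 in WT), and another Dnajc19 probe higher in both (0.10 and 0.14). The KO difference after ENU minus that on vehicle was 0.9628 for Hspa8, 0.7849 for Dnajb1, 0.6102 for Hsp90aa1 and 0.3408 for Cirbp. Each had KO above WT after ENU and below it on vehicle, though Cirbp by only 0.08 after ENU. For Dnajc12 the KO difference after ENU minus that on vehicle was -1.259, with KO below WT after ENU and above it on vehicle. Under quantile normalization Hspa8, Dnajb1 and Hsp90aa1 were above WT in KO under both treatments.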

How the results depend on the processing

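No called value changed sign under the alternatives run. Uncalled values did, and the sign changes of Hspa8, Hsp90aa1 and Dnajb1 given above are not all of them. For the 13 members at a mean log2 level of 4 or more, the median KO difference after ENU was -0.53. It became 0.0044 under quantile normalization. The fit's 14 genes that fell in KO became 5 with quantile normalization, 7 with no filter on dim probes and 9 to 14 without 1 array; the 1 that rose became 4 with normexp and 2 with probes above background on all arrays. With 8 arrays taken as replicates the counts were 36 and 16 in KO, and 38 lower and 18 higher after ENU. With the array letter as a replicate block they were 35 and 16, and 37 and 19, but the letters pair nothing. Without 1 array, the ENU counts of the fit stayed at 0. At 2-fold, KO on vehicle had 5 lower and 1 higher with normexp, 5 lower and 1 higher with quantile normalization, and 7 to 10 lower and 2 to 3 higher without 1 array. KO after ENU had 4 lower with normexp, 5 with quantile normalization and 6 to 9 without 1 array, and 1 higher with the mean of all probes. ENU in KO had 4 higher with quantile normalization, 3 with median centring and 5 to 7 lower without 1 array; ENU in WT had 9 to 10 lower. Of the 15 KO calls 10 held without each array. In these fits the other array of the same RNA sample stood for the one left out. A call that held therefore says something of spot noise only, and nothing of separate mice. Hspb7 lost its call without either KO ENU array, either WT ENU array, KO vehicle b or WT vehicle a (adjusted p up to 0.0581), Hsf4 without KO ENU b, KO vehicle b, WT ENU b or WT vehicle a (up to 0.0555), Hspb8 without KO ENU b, WT ENU b or either WT vehicle array (up to 0.0564), Dnaja4 without WT ENU b or WT vehicle b (up to 0.0524) and Hspb9 without WT ENU b (up to 0.0564). Slide as a block could not be fitted, since slide is treatment. Dim probes limit Hspb6, Hspb7, Hsf4 and Dnajb8.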
